A study of Mus musculus with 32 samples.

Results

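The 43 genes described here encode the heat shock proteins, their co-chaperones, the chaperones of the endoplasmic reticulum (ER) and the signalling factors of the unfolded protein response. They were chosen by name: 43 listed symbols were matched in gene tables of 25239 genes, by a rule that uses no measured value. The mice were of WT genotype. Each had been injected in the amygdala with 4-thiouridine (4sU, 100 mM in DMSO), a nucleoside that cells build into new RNA, or with DMSO alone, 24 h before RNA was taken from the amygdala of both hemispheres and alkylated. Alkylated 4sU is read as C in place of T, so the share of T positions read as C marks RNA made after the injection. The 26 libraries formed 6 groups. Without stress (baseline) there were 5 with 4sU and 4 with DMSO, under acute stress 5 and 5, and under chronic stress 4 and 3. The labels do not give the kind or length of the stress, nor that the replicates of a group were separate animals, so the p-values measure only the spread between these samples.

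Cells answer misfolded protein by compartment. In the cytosol, heat shock factor 1 (Hsf1) induces HSP70 and HSP90 chaperones and the J proteins that feed them clients. In the ER, the sensors Ern1, Eif2ak3 and Atf6 act through spliced Xbp1, Atf4 and cleaved Atf6 to raise folding enzymes, degradation factors and, in prolonged stress, Ddit3 (CHOP). In brain, Hspa8 and both cytosolic HSP90 proteins are abundant without stress, and the glucocorticoid receptor that stress hormones act on is itself a client of HSP70 and HSP90.

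Some promoters of these genes carry the letters of short sequences through which those factors are known to act, and those members are shown here with their matches. RefSeq promoters (250 bases before to 50 after the start, build GRCm38.p6) were matched for 36 of the 43 members. None was matched for Hspa8, Hsp90aa1, Hsp90ab1, Hspa9, Hsf1, Manf or Atf6, so these were not searched. The ER stress response element (CCAAT, then 9 bases of any kind, then CCACG) was searched like the others on both strands. It was present in 7 members, beside 0.137% of all 27025 genes with promoters of the same length. In the lines below, capitals mark the match, which begins or ends with the CCAAT box, and each sequence is written in the direction of its gene.
Hspa5 (chr2:34772020-34772048, plus strand): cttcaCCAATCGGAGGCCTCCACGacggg
Hsp90b1 (chr10:86705633-86705661, minus strand): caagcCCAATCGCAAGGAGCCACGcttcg
Calr (chr8:84847070-84847098, minus strand): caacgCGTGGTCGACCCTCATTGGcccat
Canx (chr11:50325795-50325823, minus strand): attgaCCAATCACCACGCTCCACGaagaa
Pdia6 (chr12:17266486-17266514, plus strand): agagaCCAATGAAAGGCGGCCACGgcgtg
Dnajc3 (chr14:118937822-118937850, plus strand): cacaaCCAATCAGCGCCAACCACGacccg
Creld2 (chr15:88819515-88819543, plus strand): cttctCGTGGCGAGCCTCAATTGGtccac
Hsp90b1 held a second, inverted copy. All 7 encode ER proteins that fold or hold new polypeptides. The CCAAT box alone was present in 26 of the 36 members and in 41.1% of all genes. The unfolded protein response element (TGACGTGG) was found in 0 of the 36 members, beside 0.714% of all genes.

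Herpud1, the ER degradation factor called higher under acute stress over 4sU and DMSO mice together, carried the shorter ER stress response element II. Element II (ATTGG, 1 base of any kind, then CCACG) was held by 0.0444% of all genes. It was also found after the start of Dnajb11, which was not called under acute stress. Herpud1 further carried the amino acid response element through which Atf4 acts (TGATGNAA, held by 4.51% of all genes). The same amino acid response element was found in Chac1 and Asns, both known Atf4 targets, and after the start in Trib3.
Herpud1 element II (chr8:94386368-94386396, plus strand): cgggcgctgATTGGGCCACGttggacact
Herpud1 amino acid response element (chr8:94386306-94386335, plus strand): accacggcgggTTGCATCAgcccgcacccc
Chac1 (chr2:119351038-119351067, plus strand): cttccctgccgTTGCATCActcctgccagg
Asns (chr6:7693214-7693243, minus strand): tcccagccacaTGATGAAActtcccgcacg
The heat shock element (GAA, TTC and GAA with 2 bases between each) was held by 3 of the 36 members searched and by 0.662% of all genes. It was found after the start of Hsph1 and before a RefSeq start of the mitochondrial chaperonin gene Hspd1. In the same stretch it lay before the start of the neighbour of Hspd1, Hspe1. That stretch lies inside the annotated span of Hspd1, whose exons share 96 bases with those of Hspe1 on the opposite strand. The windows of the tandem genes Hspa1a and Hspa1b are shown because the copies also match before their starts.
Hspd1 (chr1:55088051-55088079, minus strand): gccttccgGAAGGTTCTAGAAcggaccgt
Hspa1a CCAAT box (chr17:34972207-34972235, minus strand): tccggctcgctgATTGGcccagcggagag
Hspa1b CCAAT box (chr17:34959289-34959317, minus strand): tccggctcgctgATTGGcccagcggagag
The 29 bases shown were the same in Hspa1a and Hspa1b, and such matches are descriptions of letters, not measured binding sites.

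All 26 libraries were of like depth, with 16150316 to 21228741 counts in exons. Markers of glutamatergic and GABAergic neurons, astrocytes and oligodendrocytes were present in every group, and the summed hypothalamic markers stayed between 3.01 and 111 CPM (counts scaled to 1000000 per library). Choroid plexus markers varied widely, from 44.7 to 5652 CPM in acute DMSO and from 429 to 3353 in chronic 4sU libraries. Markers of striatal or central amygdala neurons ran from 853 to 3595 CPM in acute DMSO and from 539 to 2828 in chronic 4sU libraries. Libraries fell on either side of a division in the reads that lie in annotated 3′ UTR intervals: these were 37.0 to 39.6% of the exon counts in the baseline 4sU and acute 4sU libraries, and 44.6 to 53.3% in the 16 others. The comparison of 4sU with DMSO at baseline and that of chronic with baseline 4sU cross this division, while comparisons among DMSO libraries do not. Acute DMSO libraries 1, 3 and 4 and chronic DMSO library 1 were low in glutamatergic neuron markers, and acute DMSO library 2 had the highest 3′ UTR share, 53.3%.

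Per kilobase of exon, the members spanned a wide range of levels in unstressed DMSO tissue. Hspa8, the constitutive HSP70, stood at 661 ± 43.9 RPKM (SD, n = 4), and Hsp90ab1, the constitutive HSP90, at 621 ± 13.9. Their spreads touch, so their order is not settled. Hsp90aa1, the inducible HSP90, followed at 373 ± 8.31, clear of both. The ER chaperones Calr (207 ± 17.7), Hsp90b1 (147 ± 14.7), Hspa5 (120 ± 14.7) and Canx (101 ± 2.70) came next. Hspa5 and Canx differed by little more than their spread. At the other end, Chac1 was at 3.38 ± 0.437 RPKM, the sensor Ern1 at 2.41 ± 0.257, Hspa1a at 2.12 ± 0.234, Hspa1b at 1.68 ± 0.492 and the pseudokinase Trib3 at 0.298 ± 0.146. Counts per library ran from 21196 to 36425 for Hspa8, from 58 to 290 for Hspa1a, from 37 to 242 for Hspa1b and from 4 to 33 for Trib3, so Trib3 is the least precisely measured. The counting's strand setting is not given in the sources used here, and Ddit3 shares 68 exon bases with Mars1 and Pdia6 shares 65 with Atp6v1c2, in each case on opposite strands. All 43 members passed the filter on low counts in every comparison of expression.

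Few of these genes differed detectably under acute stress. With the 4sU and DMSO arms averaged, Herpud1 was the 1 member called higher and 0 were lower (2.33% of the members), against 2.39% of the 15995 genes tested (1.48% higher, 0.913% lower), so the count was near the background. Herpud1 encodes a membrane protein of the ER degradation machinery. At baseline it read 55.9, 56.6, 61.8, 55.6 and 48.7 CPM in the 4sU libraries and 50.1, 47.7, 49.6 and 58.7 in the DMSO libraries. Under acute stress it read 63.1, 62.7, 62.1, 64.2 and 66.1 with 4sU and 54.8, 73.1, 62.6, 60.1 and 62.6 with DMSO. The 4sU groups did not overlap, and in the DMSO groups acute library 1 lay below baseline library 4. The mean log2 difference was 0.24 ± 0.06 (SE; edgeR quasi-likelihood, Benjamini-Hochberg adjusted p = 0.024), with 0.19 ± 0.08 in 4sU mice (adjusted p = 0.88) and 0.30 ± 0.08 in DMSO mice (adjusted p = 0.063). The call was lost without baseline 4sU library 5 (a count of 0 members called) and without baseline DMSO library 1, 2 or 3. The median member stood 0.04 above baseline on the log2 scale, beside 0.01 for all genes.

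**Figure D1:**
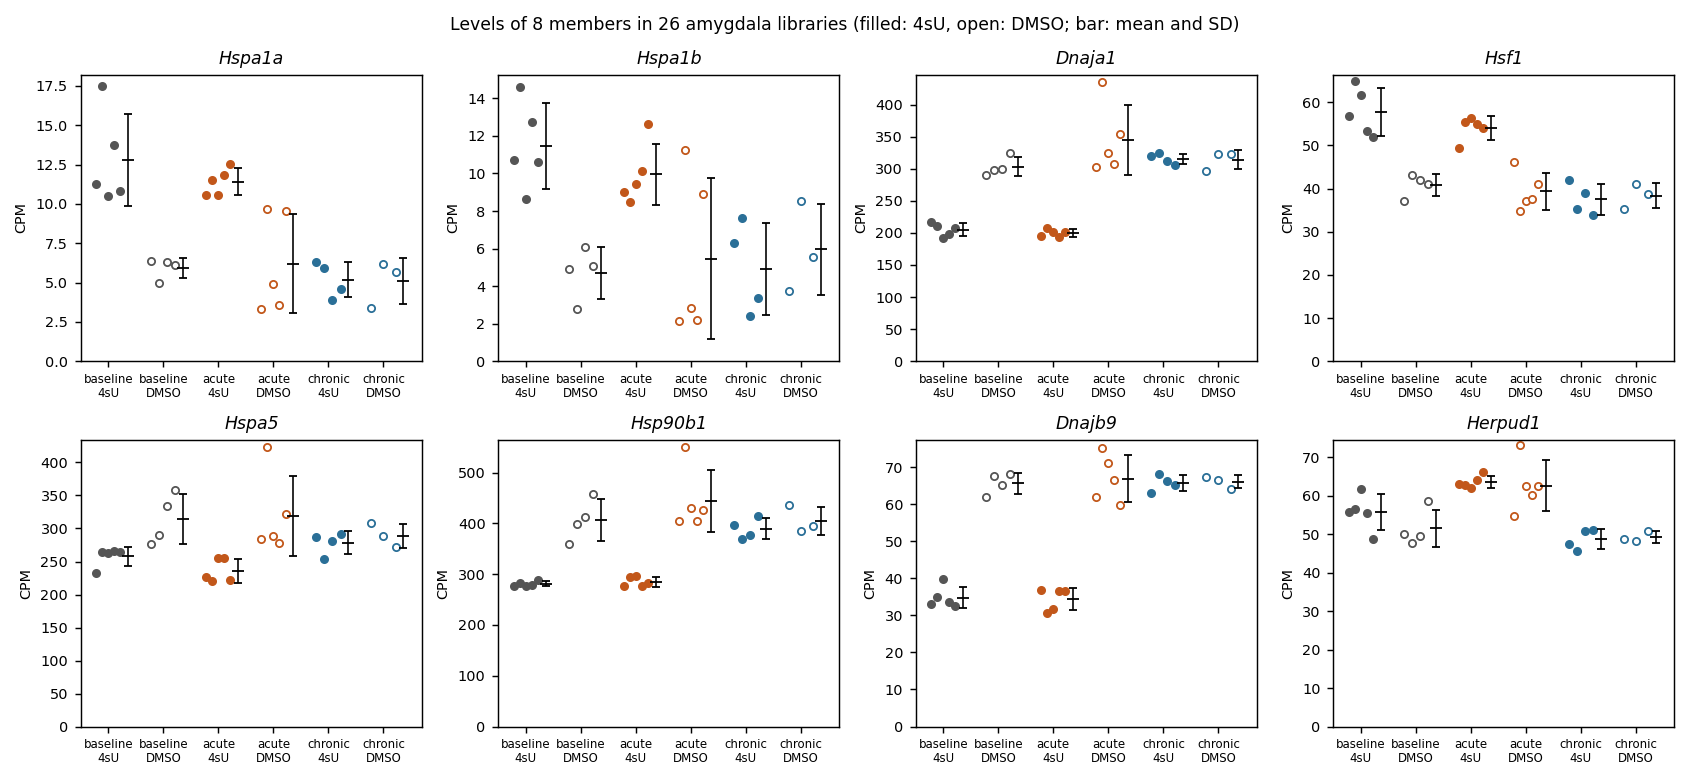
Levels of 8 members in CPM (y axes, from 0) in each of the 26 libraries, by group (x axes); filled points are 4sU, open points DMSO, bars the group mean and SD. Herpud1 lies at 62.1 to 66.1 CPM in the acute 4sU libraries, all above the baseline 4sU libraries, while Dnajb9 and Dnaja1 are low in the 10 baseline and acute 4sU libraries.

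Tested by arm, acute stress gave 0 called members in 4sU mice with edgeR (background 0.269%, of which 0.206% higher and 0.0625% lower) and 0 with DESeq2. An unadjusted p under 0.05 was reached by 1 member (2.33%, beside 4.08% of all genes). Herpud1 was the only member whose groups did not overlap there, against 2.14% of all genes. In DMSO mice edgeR called 0 members (background 2.51%, of which 1.41% higher and 1.1% lower), 9 had an unadjusted p under 0.05 (20.9%, beside 16.5% of all genes), and DESeq2 called 2, Herpud1 and Hsp90ab1 (4.65%, beside 3.8% of all genes). Hspa9 and Hsp90ab1 did not overlap, all higher, against 5.51% of all genes. In that arm the median log2 difference of the members was 0.12, beside 0.02 for all genes, and the gap between these medians was not tested. Oligodendrocyte markers summed to 17593 to 28283 CPM in the acute DMSO and 13208 to 16942 in the baseline DMSO libraries, and endothelial markers to 151 to 206 and 248 to 266. Neither pair of ranges overlapped, and their part in the result was not tested. The difference between the arms called 0 members with edgeR (background 0.0%) and 0 with DESeq2. For that difference 1 member had an unadjusted p under 0.05 (2.33%, beside 5.73% of all genes).

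Among the abundant cytosolic chaperones, Hsp90ab1 read 1512, 1547, 1581 and 1588 CPM in baseline DMSO libraries and 1689, 2371, 1706, 1741 and 1818 in acute DMSO libraries. Every acute DMSO value was above every baseline one (log2 difference 0.27 ± 0.08, adjusted p = 0.086). The 4sU libraries read 1821, 1853, 1776, 1822 and 1839 at baseline and 1780, 1851, 1815, 1808 and 1840 under acute stress, so the groups overlapped almost entirely. Hspa8 read 1288, 1347, 1431 and 1498 CPM at baseline with DMSO and 1389, 2104, 1487, 1434 and 1584 under acute stress (0.21 ± 0.10, adjusted p = 0.28). With 4sU it read 1662, 1702, 1559, 1562 and 1626, then 1579, 1622, 1730, 1684 and 1701. Both Hspa8 pairs of groups overlapped, and acute DMSO library 2 was the highest of all. Hsp90aa1 read 1042, 1052, 1096 and 1063 CPM with DMSO at baseline and 984, 1431, 1197, 1119 and 1295 under acute stress. With 4sU Hsp90aa1 read 816, 875, 795, 822 and 847, then 827, 827, 822, 846 and 888. For each of these genes the acute DMSO libraries were spread more widely than any other group.

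The inducible HSP70 genes Hspa1a (chr17:34969359-34972156, mm10) and Hspa1b (chr17:34956429-34959238), the classical heat shock reporters, were divided within the acute DMSO group. Hspa1a read 3.35, 9.65, 4.91, 3.55 and 9.56 CPM in acute DMSO libraries 1 to 5, against 6.37, 4.97, 6.29 and 6.11 at baseline. Hspa1b read 2.13, 11.3, 2.84, 2.21 and 8.90 CPM, against 4.90, 2.78, 6.07 and 5.08. Libraries 2 and 5 lay above the baseline range in both genes. Libraries 1, 3 and 4, the ones low in glutamatergic markers, lay below it in Hspa1a and at its lower end or below in Hspa1b. With both genes summed, since reads of near-identical copies may be split between them, the log2 difference was 0.15 ± 0.31 (adjusted p = 0.86). With those 3 libraries left out it was 0.90 (adjusted p = 0.0077), a value that rests on acute DMSO libraries 2 and 5. Glutamatergic markers (8 of 8 measured, none with a median of 0) summed to 784 to 2884 CPM in the acute DMSO libraries and 1657 to 2184 in the baseline DMSO libraries. Their part in the result was not tested, and in such bulk tissue fewer cells of a type and less RNA per cell cannot be told apart.

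The same omission changed the count for the DMSO arm from 0 to 14 members higher (32.6%), beside 8.9% of all 16267 genes higher and 14.7% called in either direction. They were Hspa1a, Hspa1b, Hspa2, Hspa8, Hsp90aa1, Hsp90ab1, Dnaja1, Dnaja2, the mitochondrial chaperones Hspa9, Hspd1 and Hspe1, and Herpud1, Atf4 and Pdia3. With acute DMSO library 2 also left out, only library 5 remained in the acute DMSO group, so no count is given. For the mean of both arms the first omission gave 6 members, Herpud1 among them, against 6.84% of all genes. The omission of library 2 was chosen after the values had been seen.

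Of the other cytosolic members, Hsph1, an HSP110 that exchanges nucleotide on HSP70, read 268, 268, 288 and 314 CPM in baseline DMSO and 297, 328, 302, 294 and 334 in acute DMSO libraries. With 4sU it read 298, 340.1, 304, 279 and 302 at baseline and 307, 312, 311, 315 and 324 under acute stress. Both pairs overlapped. Dnajb1, the J protein that partners inducible HSP70, read 56.2, 58.1, 48.7 and 55.2 at baseline and 53.7, 57.5, 59.4, 55.9 and 57.7 under acute stress with DMSO, and 57.1, 73.5, 64.8, 58.8 and 52.4 against 56.4, 54.9, 58.7, 61.0 and 57.0 with 4sU. Bag3, the HSP70 co-chaperone that routes clients to autophagy, read 16.2, 14.7, 14.97 and 13.9 against 12.5, 21.0, 20.7, 13.2 and 17.4 with DMSO. With 4sU Bag3 read 14.2, 16.5, 19.02, 13.9 and 17.4 against 16.5, 15.3, 17.8, 17.1 and 14.5. The groups overlapped in both genes and with both injections.

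No ER member other than Herpud1 was called under acute stress. Hspa5 (BiP), its main HSP70 and a standard marker of ER stress, read 276, 289.8, 334 and 358 CPM with DMSO at baseline and 284, 424, 288, 279 and 321 under acute stress. With 4sU it read 232, 265, 263, 265 and 264, then 226, 220.0, 255, 255 and 222. The mean log2 difference over the arms was -0.05, and both pairs overlapped. The secreted ER stress protein Manf read 38.6, 40.9, 42.1 and 51.4 against 40.1, 68.8, 45.1, 43.5 and 45.1 with DMSO, and 26.9, 33.4, 30.1, 32.7 and 26.9 against 25.1, 26.3, 31.3, 31.4 and 25.0 with 4sU. Sdf2l1, a BiP partner strongly induced by ER stress in cell culture, read 6.93, 9.66, 13.7 and 13.6 against 8.48, 15.7, 9.29, 10.1 and 10.4 with DMSO. With 4sU Sdf2l1 read 10.1, 16.5, 16.8, 14.96 and 13.7 against 10.9, 10.2, 16.5, 12.96 and 12.7. Creld2, another secreted ER stress target, read 13.5, 17.6, 16.8 and 16.9 against 17.9, 26.4, 15.8, 13.3 and 14.6 with DMSO, and 14.8, 21.1, 20.4, 19.2 and 19.01 against 18.4, 16.8, 20.2, 17.6 and 17.9 with 4sU. The groups overlapped in each of these genes.

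None of the transcription factors of the unfolded protein response was called under acute stress either. Xbp1 read 67.1, 74.8, 82.7 and 79.4 CPM against 82.4, 89.6, 67.7, 75.6 and 69.1 with DMSO, and 65.3, 82.6, 77.1, 70.6 and 59.2 against 65.3, 57.5, 68.4, 79.7 and 64.1 with 4sU; spliced and unspliced Xbp1 are not separated by these counts. Atf4, translated when Eif2ak3 is active, read 102, 98.8, 96.4 and 100.2 against 93.2, 159, 96.3, 93.4 and 109.6 with DMSO. With 4sU Atf4 read 115, 118, 114, 105 and 110.4 against 102, 109, 117, 116 and 125. Ddit3 read 18.3, 18.1, 17.6 and 19.96 against 19.8, 29.9, 20.001, 18.1 and 17.2 with DMSO, and 21.2, 21.1, 23.1, 24.6 and 24.1 against 17.6, 18.9, 24.6, 24.3 and 25.9 with 4sU. Chac1, the glutathione-degrading target of Atf4 and Ddit3, read 6.31, 5.13, 4.99 and 4.78 against 5.31, 5.49, 4.67, 5.18 and 4.75 with DMSO. With 4sU Chac1 read 10.4, 10.1, 7.15, 10.6 and 6.58 against 6.75, 5.73, 8.62, 8.31 and 11.96. All of these groups overlapped, and the sensors Ern1, Eif2ak3 and Atf6 had mean log2 differences of -0.02, 0.04 and 0.10 with none called.

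Chronic stress, read in DMSO libraries that lie on one side of the 3′ UTR division, gave 0 called members with edgeR (background 0.0%; 1 member at an unadjusted p under 0.05, and 0 with DESeq2). Across all genes 913 of 16096 had an unadjusted p under 0.05. The median member differed by 0.01, from -0.21 for Hspa1a to 0.35 for Hspa1b, the neighbouring copies of near-identical sequence. Their sum differed by 0.06 ± 0.29. The member with the unadjusted p under 0.05 was Bag3, at 17.7, 20.8 and 17.4 CPM under chronic stress, all above the 13.9 to 16.2 of baseline (0.32 ± 0.13). It was the only member without overlap, against 7.97% of all genes. Among the others, Hspa1a read 3.41, 6.20 and 5.69 CPM, Hspa1b 3.76, 8.53 and 5.58, and Hspa8 1275, 1381 and 1296. Hsp90aa1 read 1054, 1149 and 1125, Hsp90ab1 1555, 1682 and 1654, and Dnaja1 297, 323 and 322. The ER chaperones read 308, 288 and 271 for Hspa5, 436, 385 and 394 for Hsp90b1, 465, 441 and 436 for Canx and 67.5, 66.6 and 64.2 for Dnajb9. For all of these the chronic and baseline DMSO ranges overlapped. Choroid plexus markers summed to 3698 to 5533 CPM in the chronic DMSO and 3019 to 3567 in the baseline DMSO libraries, without overlap. The other marker sums overlapped between these groups, and the part of such markers in the result was not tested.

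In the remaining named members, Hsph1 read 269, 282 and 286 CPM, Dnajb1 44.4, 50.3 and 53.4, and Hsf1 35.2, 41.0 and 38.7. Sdf2l1 read 12.8, 11.4 and 10.8, Creld2 17.4, 17.3 and 14.0, Manf 47.6, 44.5 and 40.0, and Herpud1 48.7, 48.1 and 50.9. Xbp1 read 75.2, 68.5 and 70.7, Atf4 87.1, 112 and 107, Ddit3 19.1, 19.3 and 16.1, and Chac1 4.05, 4.82 and 4.96. Each range overlapped that of baseline DMSO.

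Set directly against acute stress in DMSO mice, chronic stress had 1 member lower, Herpud1, and 0 higher, against 1.78% of 16310 genes (1.07% lower, 0.711% higher). The chronic values of 48.1 to 50.9 CPM lay below all acute values of 54.8 to 73.1 (log2 difference -0.34 ± 0.08, adjusted p = 0.028). This comparison and that of acute stress with baseline share the acute DMSO libraries. The call was lost when any 1 of the 3 chronic DMSO libraries was left out, on 3′ UTR reads, with a replicate block, and with only both groups in the fit (adjusted p = 0.51). It was also lost once the low-glutamatergic libraries were removed (adjusted p = 0.067), where Hspa8 was the 1 member called, against 0.517% of all genes. Hsph1, Hsp90ab1, Hspa8 and Dnajb1 were also lower without overlap, making 5 members of 43 against 6.57% of all genes. DESeq2 called Hspa8 as well (-0.29, adjusted p = 0.048). Oligodendrocyte markers summed to 13897 to 17315 CPM in the chronic DMSO and 17593 to 28283 in the acute DMSO libraries. Endothelial markers summed to 249 to 252 and 151 to 206 CPM. Neither pair of ranges overlapped, while the other marker sums did, and their part in the result was not tested.

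**Figure D2:**
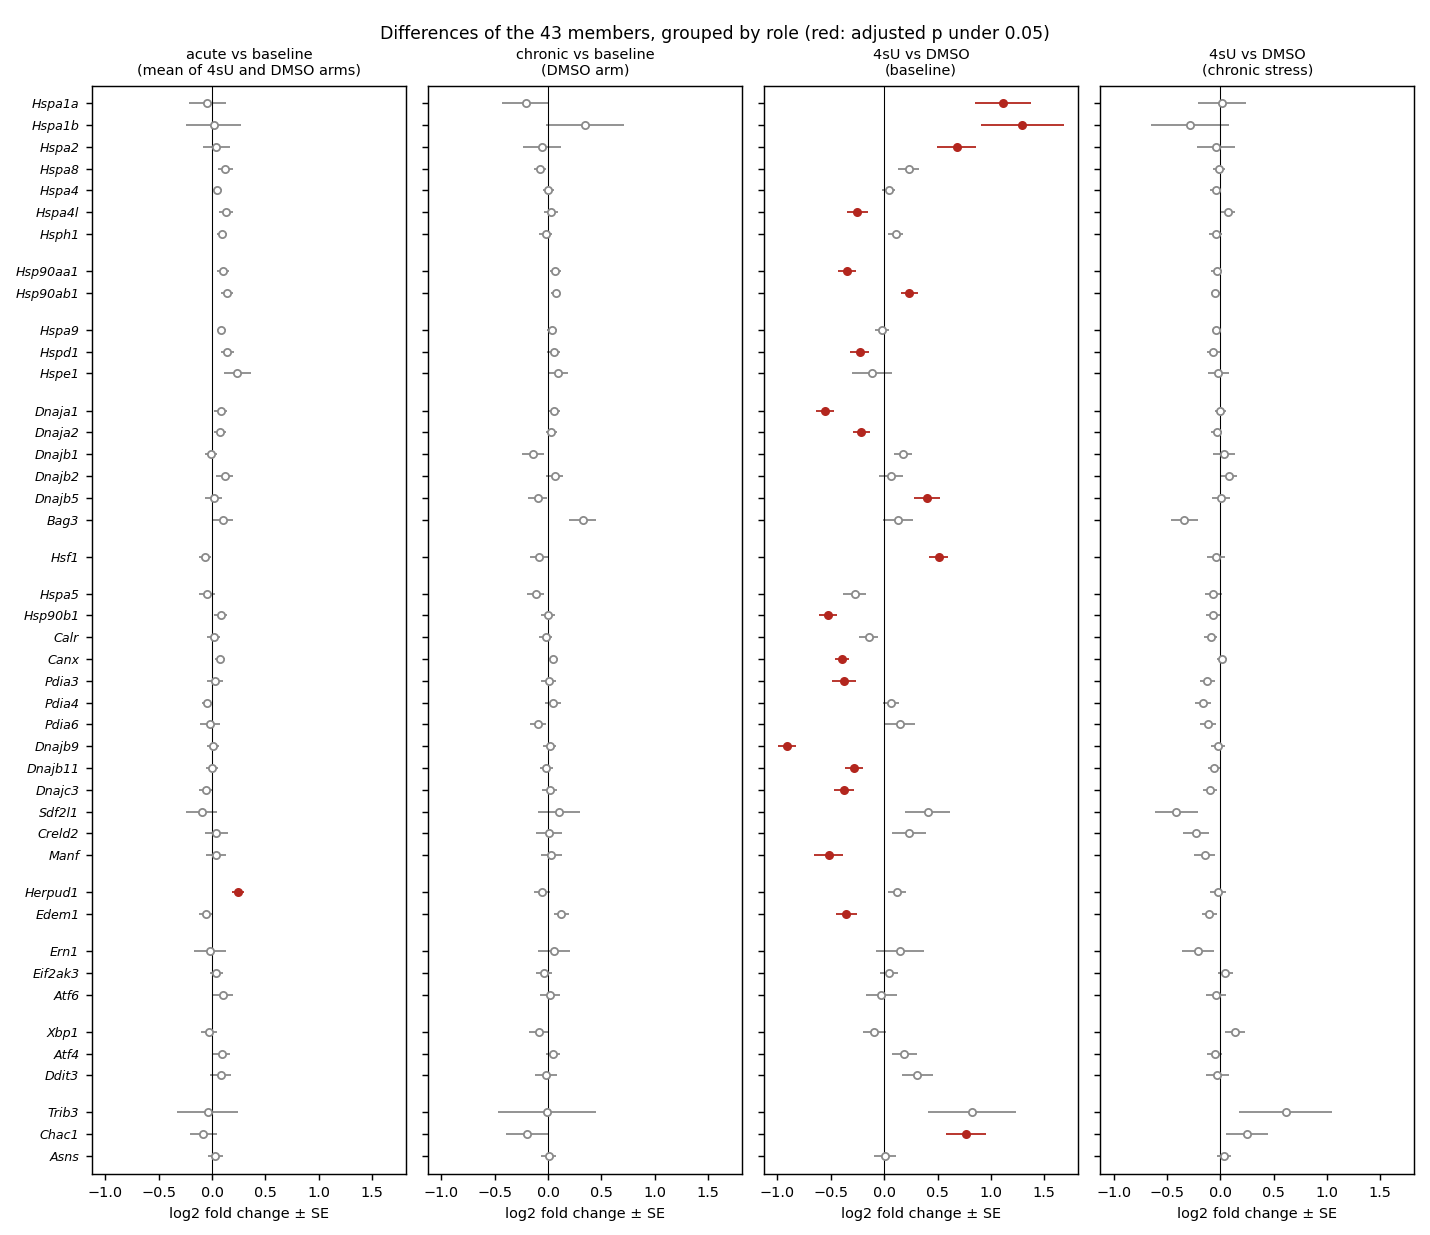
Log2 fold change with SE (x axes) of the 43 members, grouped by role (y axis), in 4 comparisons by edgeR; red points have an adjusted p under 0.05. The stress comparisons hold 1 red point, Herpud1 in the acute mean, while 4sU against DMSO at baseline holds 7 to the right and 13 to the left, and the same contrast under chronic stress holds none.

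Between the injections at baseline, differences reached 1.29 on the log2 scale, beside 0.41 under acute and 0.35 under chronic stress in DMSO mice. At baseline 7 members were higher and 13 lower in 4sU than in DMSO libraries, 46.5% of the members beside 41.9% of all 15995 genes (21.1% higher, 20.7% lower), so the count was near the background. Without overlap there were 9 higher and 14 lower, against 45.9% of all genes. Of 16 cytosolic members 6 were higher and 4 lower (median 0.15), and of 15 members of ER folding and degradation 0 were higher and 8 lower (median -0.28). The difference between these roles was not tested. None of the 6 sensors and transcription factors was called.

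The higher group was led by the inducible HSP70 genes. Hspa1a read 11.2, 17.5, 10.5, 13.8 and 10.8 CPM in baseline 4sU libraries, all above the DMSO values given before (1.11 ± 0.26, adjusted p = 0.0019). Hspa1b read 10.7, 14.6, 8.66, 12.8 and 10.6 (1.29 ± 0.39, adjusted p = 0.012), also without overlap. Under acute stress the 4sU libraries read 10.5, 11.5, 10.5, 11.9 and 12.5 for Hspa1a and 9.02, 8.49, 9.44, 10.2 and 12.6 for Hspa1b. Hsf1, their master regulator, read 56.9, 64.9, 61.8, 53.4 and 52.0 with 4sU and 37.1, 43.2, 41.9 and 41.1 with DMSO at baseline (0.51 ± 0.08, adjusted p = 8.6e-05). Acute values of Hsf1 were 49.5, 55.3, 56.5, 55.0 and 54.0 with 4sU and 46.1, 34.9, 37.2, 37.7 and 41.0 with DMSO. Hspa2, an HSP70 first known from testis, averaged 65.1 ± 6.91 against 41.0 ± 8.59 CPM (0.68 ± 0.19, adjusted p = 0.0065). The J protein gene Dnajb5 (0.40 ± 0.12), Hsp90ab1 (0.23 ± 0.08) and Chac1 (0.76 ± 0.19) completed the 7.

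The lower group was led by Dnajb9, a J protein that delivers ER clients to degradation and is a sensitive target of Xbp1. It read 33.1, 34.9, 39.8, 33.7 and 32.6 CPM with 4sU against 62.0, 67.7, 65.1 and 68.1 with DMSO at baseline (-0.91 ± 0.08, adjusted p = 1.2e-07). Under acute stress Dnajb9 read 36.8, 30.6, 31.8, 36.5 and 36.6 against 61.8, 75.2, 71.1, 66.4 and 59.8. Dnaja1, a cytosolic J protein, read 217, 211, 192, 199 and 208 against 290.3, 298, 299 and 324 at baseline (-0.55 ± 0.09, adjusted p = 4.0e-05), and 195, 207, 201, 193 and 202 against 302, 435, 324, 307 and 354 under acute stress. Hsp90b1, the ER HSP90, read 277, 283, 276, 279.5 and 289 against 359, 399.7, 412 and 458 (-0.53 ± 0.09, adjusted p = 6.5e-05). Its acute values were 276, 295, 296, 277 and 282 against 405, 551, 431, 405 and 425. Canx, the lectin chaperone calnexin, read 320.0, 332, 329, 329 and 335 against 419, 441, 430.2 and 445 (-0.39 ± 0.07, adjusted p = 0.00010). Under acute stress Canx read 349, 349, 315, 322 and 328 against 442, 432, 532, 492 and 456. In these 4 genes every 4sU library lay below every DMSO library in both states; the contrast of injections under acute stress was not tested.

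Manf was lower by a log2 difference of -0.52 ± 0.14 and Hsp90aa1 by -0.35 ± 0.08. The others called lower were the disulfide isomerase Pdia3 (-0.38), the J proteins Dnajc3 (-0.37), Dnajb11 (-0.28) and Dnaja2 (-0.21), the mannosidase-like Edem1 (-0.35), the HSP110 Hspa4l (-0.25) and the mitochondrial chaperonin Hspd1 (-0.23). Hspa5 itself did not pass (-0.28 ± 0.11, adjusted p = 0.052), although its 5 baseline 4sU values lay below its 4 DMSO values. Of the 7 members with the ER stress response element shown above, Hsp90b1, Canx and Dnajc3 were lower, and Hspa5, Calr, Pdia6 and Creld2 were not called. The members not called in this comparison also included Hspa4, Hsph1, Hspa9, Hspe1, Dnajb1, Dnajb2, Bag3, Pdia4, Sdf2l1, Herpud1 and Asns. Markers of several cell types differed between the injections without overlap. The oligodendrocyte markers (8 of 8 measured, none with a median of 0) summed to 6526 to 9349 CPM in baseline 4sU and 13208 to 16942 in baseline DMSO libraries, and the endothelial markers (6 of 6) to 114 to 151 and 248 to 266. The glutamatergic markers (8 of 8) summed to 2411 to 3291 CPM with 4sU and 1657 to 2184 with DMSO, while the astrocyte and microglia sums overlapped. Their part in these differences was not tested.

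Where reads fell along a transcript differed between the same libraries. For 32 of 43 members (74.4%) the mean number of 3′ UTR reads per 100 exon counts was lower in baseline 4sU than in baseline DMSO libraries, as it was for 75.6% of 12733 genes. It was lower without overlap for 15 members (34.9%, against 35.9% of all genes) and higher without overlap for 5 (11.6%, against 4.38%). Hspa1b had 4.45 ± 1.52 (SD, n = 5) such reads per 100 exon counts with 4sU and 19.4 ± 5.14 (n = 4) with DMSO. Hspa1a had 8.06 ± 3.35 and 19.7 ± 11.1, and Hspa2 had 5.33 ± 1.45 and 13.2 ± 1.98. Hspa4l went the other way, with 30.9 ± 1.49 and 24.9 ± 1.83.

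**Figure D3:**
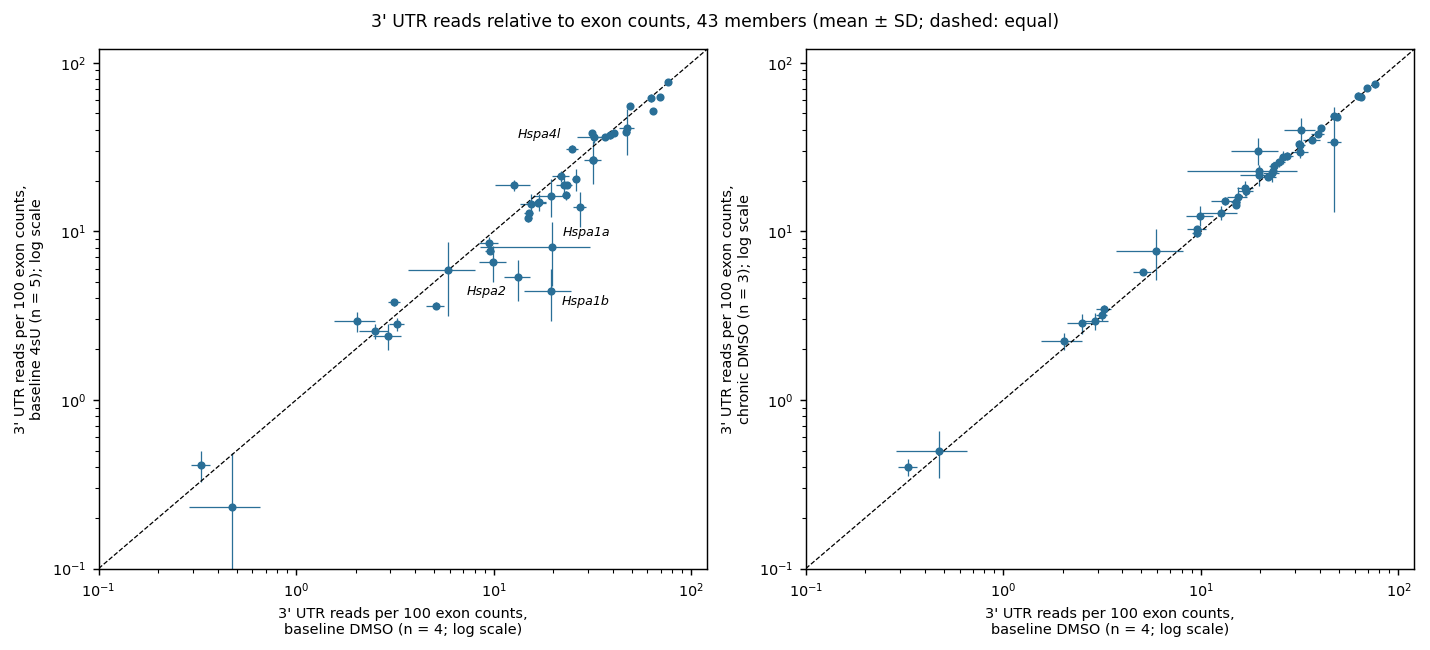
Reads in 3′ UTR intervals per 100 exon counts, mean and SD of each member on log axes, in baseline DMSO libraries (x axes) against baseline 4sU libraries (left y axis) and chronic DMSO libraries (right y axis); the dashed line marks equality, and 1 error bar runs off the left panel. In the left panel 32 of 43 members lie below the line, with Hspa1a, Hspa1b and Hspa2 far below it.

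The result for the inducible HSP70 genes depended on which reads were counted. Counted in 3′ UTR intervals in place of exons, Hspa1a differed between 4sU and DMSO at baseline by 0.08 ± 0.40 (adjusted p = 0.89), Hspa1b by -0.61 ± 0.48 (adjusted p = 0.32) and Hspa2 by -0.44 ± 0.27 (adjusted p = 0.21). Of the 20 members called on exon counts, 13 were also called in the same direction on 3′ UTR reads, 3 had the same direction without a call, and 4 had the opposite sign. Dnajb9 (-0.98 ± 0.10), Dnaja1 (-0.66 ± 0.09), Hsp90b1 (-0.53 ± 0.21), Hsf1 (0.51 ± 0.12) and Chac1 (1.11 ± 0.21) were among the 13. Hspa4l was called on both, lower on exon counts and higher on 3′ UTR reads (0.26 ± 0.09, adjusted p = 0.028).

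Under chronic stress both injections lie on the same side of the division. There edgeR called 0 members between 4sU and DMSO (background 0.137%, of which 0.0249% higher and 0.112% lower), and DESeq2 called 0. An unadjusted p under 0.05 was reached by 2 members (4.65%, beside 9.16% of all genes). Hspa1a read 6.28, 5.95, 3.90 and 4.61 CPM in chronic 4sU libraries and Hspa1b 6.28, 7.65, 2.43 and 3.37, overlapping the DMSO values of both genes. Dnajb9 read 62.9, 68.1, 66.3 and 65.3, Dnaja1 319.7, 324, 312 and 307, and Hsf1 41.9, 35.3, 39.0 and 33.8. Hsp90b1 read 397, 368, 377 and 415, Canx 486, 449, 440.0 and 440.4, and Hspa5 288, 253, 280.3 and 292. In all of these the ranges of both injections overlapped. Bag3 (15.3, 15.5, 11.7 and 16.9), Sdf2l1 (8.41, 8.80, 8.28 and 9.82) and Hspd1 were lower in every 4sU library, 3 of 43 against 8.96% of all genes. The difference in Bag3 was -0.34 and that in Sdf2l1 -0.41. Oligodendrocyte markers summed to 19300 to 21107 CPM in the chronic 4sU and 13897 to 17315 in the chronic DMSO libraries. Choroid plexus markers summed to 429 to 3353 and 3698 to 5533 CPM, and hypothalamic markers to 13.9 to 111 and 3.01 to 7.86. None of these pairs of ranges overlapped, while the other marker sums did. Their part in the result was not tested.

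Chronic 4sU set against baseline 4sU gave 13 members higher and 17 lower, against 56.5% of all 16096 genes (26.9% higher, 29.6% lower), and 13 and 13 without overlap, against 44.9%. This comparison shares its baseline 4sU libraries with the one between injections at baseline, and stress cannot be told apart in it from the 3′ UTR division, which follows the same groups. Dnajb9 differed by 0.89 ± 0.06 (adjusted p = 4.8e-10), Dnaja1 by 0.60 ± 0.05, Canx by 0.44 ± 0.04 and Hsp90b1 by 0.45 ± 0.06. Hspa1a differed by -1.32 ± 0.19 (adjusted p = 1.0e-05), Hspa1b by -1.24 ± 0.32, Hsf1 by -0.64 ± 0.08 and Hspa8 by -0.32 ± 0.05. On 3′ UTR reads 18 of these 30 calls were made in the same direction, 5 kept only the direction and 7 had the opposite sign. The chronic difference itself differed between the arms for 10 members upward and 12 downward, against 38.0% of all genes (18.1% and 19.9%). Oligodendrocyte markers summed to 19300 to 21107 CPM in the chronic 4sU libraries, above every baseline 4sU library. Endothelial markers summed to 234 to 283 CPM against 114 to 151, and glutamatergic markers to 1313 to 2291 against 2411 to 3291, both without overlap. The part of these markers in the result was not tested.

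In the other named members of the chronic 4sU libraries, Hspa8 read 1347, 1348, 1254 and 1314 CPM, Hsp90aa1 1095, 1158, 1032 and 1072, and Hsp90ab1 1623, 1604, 1590 and 1534. Hsph1 read 261, 271, 279 and 277, and Dnajb1 46.7, 58.0, 48.9 and 49.7. Creld2 read 13.4, 13.4, 15.03 and 14.0, Manf 38.1, 40.4, 40.6 and 40.7, and Herpud1 47.5, 45.5, 50.8 and 51.1. Xbp1 read 80.0, 71.8, 81.2 and 82.7, Atf4 100.0, 102, 92.2 and 102, Ddit3 15.6, 15.97, 19.5 and 20.7, and Chac1 4.90, 6.44, 6.33 and 4.38. For Hspa8, Hsp90ab1, Hsph1, Atf4, Ddit3 and Chac1 every one of these lay below the baseline 4sU libraries (for Hsph1 by a margin of under 1 CPM), and for Hsp90aa1 and Manf every one lay above.

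Labelled RNA was called in 3 members. Over all 3′ UTR intervals 0.0478 ± 0.0050% of T positions read as C with 4sU and 0.0275 ± 0.0030% with DMSO at baseline (exact permutation test, two-sided p = 0.016). Under acute stress the shares were 0.0497 ± 0.0082% and 0.0242 ± 0.0018% (p = 0.0079, exact), and under chronic stress 0.0627 ± 0.0135% and 0.0250 ± 0.0014% (p = 0.057, exact, the smallest that 4 against 3 libraries allow). At baseline 29 members had enough T positions (a mean of at least 2000 per library). Of these 3 were called higher with 4sU, against 7.28% of 8484 genes (7.45% in either direction), and the median log2 ratio was 0.13 beside 0.20 for all genes. Hspa1a, Hspa1b and Hspa8 lay below the minimum, with means of 648, 790.0 and 1030 positions, so their conversion was not tested.

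Canx showed 275 conversions over the 5 baseline 4sU libraries and 125 over the 4 DMSO libraries. Its shares were 0.0944, 0.0520, 0.0476, 0.0618 and 0.0574% with 4sU and 0.0183, 0.0132, 0.0283 and 0.0321% with DMSO (log2 ratio 1.45 ± 0.26, adjusted p = 1.6e-06). Dnaja1 showed 115 and 47 conversions, with shares of 0.0821, 0.0379, 0.0488, 0.130 and 0.0866% against 0.00519, 0.0265, 0.0369 and 0.0111% (1.93 ± 0.36, adjusted p = 3.4e-06). Hsp90aa1 showed 78 and 29 conversions, and its shares ran from 0.0255 to 0.114% against 0.0103 to 0.0238% (1.97 ± 0.43, adjusted p = 0.00013). In each of the 3 genes all 4sU libraries lay above all DMSO libraries. All 3 also had lower exon counts with 4sU at baseline. No change of conversion with stress, relative to each library's overall rate, passed the test. With edgeR 0 of 28 members were called under acute stress (background 0.0%) and 0 of 29 under chronic stress (background 0.236%). An unadjusted p under 0.05 was reached by 4 under acute stress (14.3%, beside 5.32% of all genes) and 5 under chronic stress (17.2%, beside 7.14%). Counted as reads with a conversion, these shares were 10.7% (beside 4.75%) and 3.45% (beside 7.17%). DESeq2 was not run on conversions. Canx differed by 0.22 ± 0.20 under acute and 0.49 ± 0.20 under chronic stress, the latter resting on a share of 0.217% in chronic 4sU library 4.

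**Figure D4:**
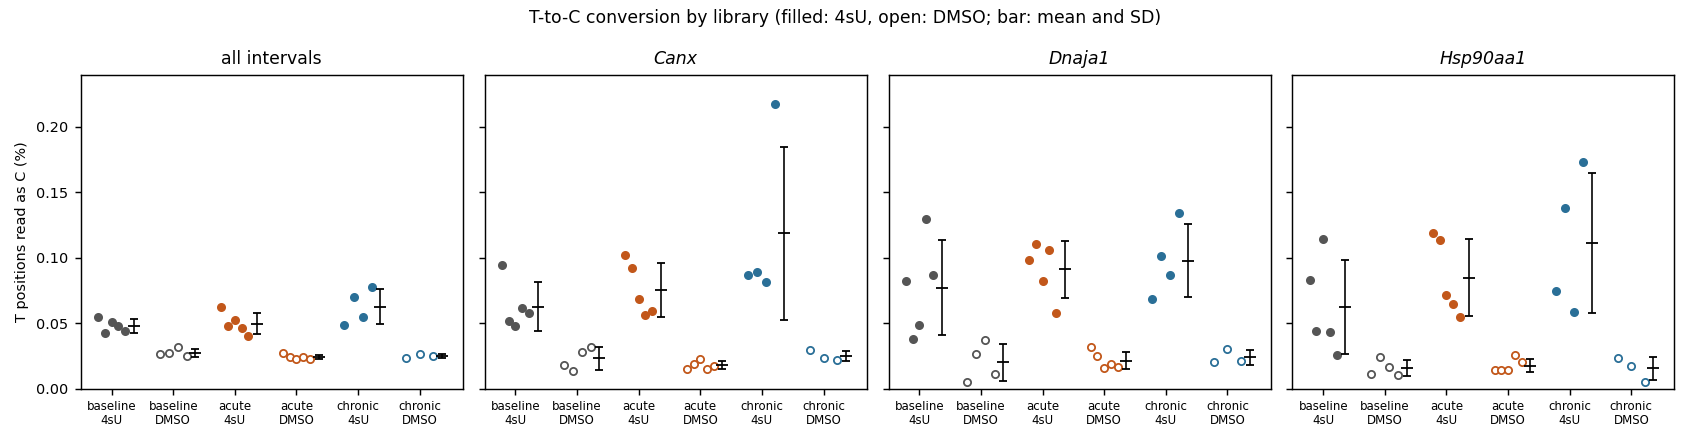
Percent of T positions read as C (y axes, from 0) over all 3′ UTR intervals and in Canx, Dnaja1 and Hsp90aa1, in each library by group (x axes), with group mean and SD; filled points are 4sU, open points DMSO. In the 3 genes the baseline 4sU libraries lie above the baseline DMSO libraries, and Canx reaches 0.217% in 1 chronic 4sU library.

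Other genes of the same pathways, 136 listed and 130 tested, were counted by list. In the acute mean 2 of the 130 were higher and 0 lower, beside 1.48% and 0.913% of all genes, so the count was near the background. Both came from the list of Atf4 targets: Gpt2, an alanine aminotransferase (0.43 ± 0.07, adjusted p = 0.00075), and Stc2, a secreted stanniocalcin (0.58 ± 0.14, adjusted p = 0.036). Gpt2 averaged 72.5 and 61.6 CPM at baseline with 4sU and DMSO, and 92.4 and 87.3 under acute stress. Stc2 was low, at 2.38 and 1.68 CPM at baseline and 3.16 and 2.82 under acute stress. In DMSO mice Gpt2 and the small heat shock protein Cryab (0.59 ± 0.14) were higher and the amino acid transporter Slc7a3 lower (-0.48). The background there was 1.41% higher and 1.1% lower. Cryab averaged 130 CPM at baseline and 194 under acute stress with DMSO, and 97.1 and 98.4 with 4sU. Oligodendrocyte and endothelial marker sums did not overlap between the baseline and acute DMSO libraries, and their part in the result was not tested. The 12 tested genes of the cytosolic chaperonin and its prefoldin partners had a median of 0.19 in that arm, with 0 called by edgeR. Of these 2 had an unadjusted p under 0.05, beside 16.5% of all genes. This was a single list among several, and its direction was not tested against that of all genes. Chronic stress in DMSO mice called 0 of the 130 with edgeR, with 4 at an unadjusted p under 0.05, beside 5.67% of all genes. Between injections at baseline 32 were higher and 31 lower (48.5%, beside 41.9% of all genes). They included the co-chaperones Chordc1 (-0.89) and Sgta (0.78), the mitochondrial proteases Yme1l1 (-0.85) and Lonp1 (0.60), the ER proteins Hspa13 (-0.70) and Erp44 (-0.67), and the kinase Eif2ak2 (-1.07).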

How the data were processed

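SLAM-seq, RNA sequencing in which alkylated 4sU is read as T-to-C conversions, was analysed in 26 mouse amygdala libraries. The members and gene lists were chosen with earlier results of these data known. The authors deposited counts per gene in exons, and for each 3′ UTR interval the reads, the covered T positions, the conversions and their fraction, per the file headers. Tools listed in the submitters' processing notes, without roles, are slamdunk 0.4.3, featureCounts 2.0.1, HISAT2 2.1.0, cutadapt 3.1 and SAMtools 1.9, with the build mm10. The strand setting, like the handling of multiple matches, is not given in the sources used here. Such settings decide how reads of near-identical or overlapping genes are shared out.

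Counts were tested with edgeR 4.0.16 (R 4.3.3; TMM, filterByExpr, robust quasi-likelihood, 1 coefficient per group), with Benjamini-Hochberg adjustment over all genes tested and a threshold of 0.05. Baseline libraries were fitted with acute ones (19) or chronic ones (16), and all 26 were fitted together for chronic against acute stress. Levels are CPM scaled by TMM over the 26 libraries, and RPKM by exon length. Conversions were tested with edgeR, taking as offset the logarithm of the T positions covered, in the interval of each gene with most T positions and a mean of at least 2000; stress comparisons were rescaled to a common overall rate. Overall conversion was compared with an exact permutation test in SciPy 1.17.1. The tests were checked on simulated counts. Values in every library are given for up to 8 called members per comparison with the smallest p and for 16 fixed members; of each other list up to 4 called genes may be named.

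Alternatives were DESeq2 1.42.0, DESeq2-type (RLE) size factors, no filter on low counts, a replicate block, 3′ UTR reads in place of exon counts, other sets of groups in the fit, other minimums of T positions, conversions counted per read or over all intervals, and leaving out libraries. Auditory cortex samples were not used.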

Additional observations from a re-analysis of the deposited data

Results flagged for a closer look

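Several members had a library far from the others of its group, and most such cases were acute DMSO library 2. There Hspa8 read 2104 CPM (others 1389 to 1584), Hsp90ab1 2371 (1689 to 1818) and Hsp90b1 551 (405 to 431). Sdf2l1 read 15.7 (8.48 to 10.4), Manf 68.8 (40.1 to 45.1), Atf4 159 (93.2 to 109.6) and Ddit3 29.9 (17.2 to 20.001). This library also had the highest 3′ UTR share, 53.3% of exon counts, whose part was not tested. Apart from it, Hspa5 read 232 CPM in baseline 4sU library 1 (others 263 to 265) and Manf 38.1 in chronic 4sU library 1 (40.4 to 40.7). In all, 9 of 110 groups of values met Dixon's criterion, and chance alone gives about 1 in 20.

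The chronic difference was not the same in 4sU and DMSO mice for members tested for that difference with edgeR. It was larger in 4sU mice by a log2 value of 0.88 for Dnajb9 (adjusted p = 6.5e-07), 0.54 for Dnaja1, 0.45 for Hsp90b1, 0.40 for Canx and 0.30 for Hsp90aa1. It was lower by -1.11 for Hspa1a (adjusted p = 0.0056), -0.56 for Hsf1 and -0.29 for Hsp90ab1. Baseline 4sU libraries alone among these 4 groups had the lower 3′ UTR share (37.5 to 39.5%, against 44.7 to 49.9%), and this share and the injection by stress cannot be told apart.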

How the results depend on the processing

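The count of members called acutely over both arms was 1. It was 0 on 3′ UTR reads (beside 1.46% of all genes) and 6 with the low-glutamatergic libraries removed (beside 6.84%). When single libraries were left out it was 0 to 2 (2, with Hspa4l, without acute DMSO library 2). In the 4sU arm it stayed at 0 to 0 and in the difference of arms at 0 to 0. For that difference, leaving out the low libraries gave 3, beside 1.92% of all genes. In the DMSO arm the count of 0 became 2 with DESeq2 (beside 3.8% of all genes), 14 without the low libraries (14.7%) and 1 with all 6 groups fitted (3.46%). It was 0 to 3 when single libraries were left out (3 without acute DMSO library 1 or 2, 1 without baseline DMSO library 4). Chronic stress in DMSO mice and 4sU against DMSO under chronic stress gave 0 to 0. The difference of chronic effects (22, beside 38% of all genes) gave 8 with all 6 groups (beside 25.2%). It gave 14 to 22 when single libraries were left out, 14 without chronic DMSO library 2. Chronic 4sU gave 29 to 31, 4sU against DMSO at baseline 17 to 20, and baseline conversion 3 to 4. Chronic against acute stress gave 2 with DESeq2 (beside 2.54% of all genes), 0 on 3′ UTR reads (0.994%) and 0 with only both groups fitted (0%). It gave 0 to 1 when single libraries were left out. The summed Hspa1a and Hspa1b value of 0.15 became 0.90 without the low libraries and ran from -0.15 (without acute DMSO library 2) to 0.33. The replicate block changed that sum to -0.061. With it the counts were 16 for the difference of chronic effects (beside 34.6% of all genes) and 0 for chronic against acute stress (1.43%). They were 17 for 4sU against DMSO at baseline (39.6%), 30 for chronic 4sU (53%) and 3 for baseline conversion (6.78%). Whether equal numbers pair samples is not settled. Of 58 same-numbered pairs 19 had deviations correlating above 0.1 (median -0.032, from -0.52 to 0.41), and differently numbered pairs were not set beside them. Among values of single members 9190 kept their side of the threshold, without regard to the sign of values called in neither setting. Another 170 lost and 108 gained the call. A further 19, each called before or after the change of setting, changed sign, all on 3′ UTR reads. For 4sU against DMSO at baseline these were Hspa1b (-0.61), Hspa2 (-0.44), Hspa4l (0.26) and Hspd1 (0.0081). For chronic 4sU they were Asns (-0.65), Atf4 (0.33), Dnajb2 (-0.38), Hspa1b (1.18), Hspa2 (0.31), Hspa4l (-0.072), Hsph1 (0.056), Pdia4 (0.60) and Sdf2l1 (0.41). For the difference of chronic effects they were Atf4 (0.19), Dnajb2 (-0.39), Hspa1b (0.13), Hspa2 (0.18), Hspa4l (-0.11) and Sdf2l1 (0.31). Values called in neither setting could change sign as well and are not among the 19. For 4sU against DMSO at baseline, Atf4 was 0.19 on exon counts and -0.63 on 3′ UTR reads, and Sdf2l1 0.41 and -0.38. The causes were not tested. Fewer samples or reads enter the fits without libraries or on 3′ UTR reads. The omission of acute DMSO library 2 together with the low libraries was added after seeing the data. It left only acute DMSO library 5 in that group, so its counts are not given.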
